A study of Homo sapiens with 8 samples.

Results

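Genes for making cholesterol and fatty acids were followed at the level of nascent transcription in HCT116 cells, an established human colorectal carcinoma line, during acute hypoxia. The set comprised 30 genes of 23193 counted, picked by symbol for their place in these pathways, with earlier results of these data known. PRO-seq, which marks the RNA held by engaged RNA polymerase II (RNAPII) in a nuclear run-on, was carried out on wild-type (WT) and HIF1A-/- cells in normoxia or after 90 min in 1% O2, with DMSO vehicle in all cultures. HIF1A is the oxygen-regulated subunit of the HIF1 transcription factor, and the HIF1A-/- cells are 1 derived line in which internal exons of the gene were interrupted through recombination with an adeno-associated virus. Each of the 4 groups had 2 libraries from separate cultures, 8 in all, and reads were counted over the gene body (productive elongation) and over the TSS region (paused RNAPII).

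Cholesterol is built from acetyl-CoA through the mevalonate pathway to farnesyl diphosphate, then to squalene and through a series of oxygen-consuming steps to the sterol. The supply is set by feedback. When sterols are low, SCAP escorts the SREBP transcription factors, the products of SREBF1 and SREBF2, out of the endoplasmic reticulum, and when sterols are high, the INSIG proteins hold the complex back. Fatty acids are made from the same acetyl-CoA by acetyl-CoA carboxylase and fatty acid synthase and are then elongated and desaturated.

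All 30 genes were present in both tables and all 30 passed the low-count filter in each. Total reads were 18125234 to 23622392 per library in gene bodies and 2783581 to 5966348 in TSS regions, of which the 30 genes took 0.345 to 0.393% and 0.204 to 0.263%. Single genes of the set had 78 to 20948 reads per library in the gene body and 6 to 1694 at the TSS. As a check of the labels, 11 of 12 well-known HIF targets were called higher in hypoxia in WT cells and 0 of 12 in HIF1A-/- cells. Over all genes, 0.431% and 0% were called higher in these comparisons. The median log2 fold changes of the targets were 2.36 and 0.03 (0 of 12 had an unadjusted p under 0.05 in HIF1A-/- cells). Gene body reads on HIF1A itself were 129 to 172 counts per 1000000 reads (CPM) over the 8 libraries, and do not test the genotype, since interrupting internal exons need not stop RNAPII from crossing the gene. All 6 epithelial markers passed the filter, with a summed level of 586 to 759 CPM. KRT8 made most of it at 338 to 516 CPM, CDX2 stood at 13.1 to 19.1 CPM, and VIL1 reached at most 0.635 CPM. Of the markers of other cell types 3 of 7 passed, with a summed level of 19.8 to 54.9 CPM. COL1A1, a collagen gene of fibroblasts, made most of that sum at 19.0 to 50.3 CPM, while COL3A1 and the endothelial CDH5 reached at most 2.07 and 1.65 CPM and no leukocyte or hepatocyte marker passed.

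The DNA before the start sites is given here for the genes that the hypoxia results turn on, INSIG2, STARD4 and INSIG1, and for HMGCS1 and SREBF2, which hold a sterol response element. The window searched ran from 250 bases before the counted TSS through 50 bases from it on (GRCh37), on both strands. The core of the hypoxia response element, ACGTG, was found in 12 of 30 members, 40.0%, against 22.5% of all 23193 windows. The sterol response element, TCACNCCAC, was found in 3 members, HMGCS1 and SREBF2 among them, 10.0% against 1.23%, and the CCAAT box in 20, 66.7% against 35.5%. The E-box CACGTG, which contains ACGTG, was found in 3 members (SC5D, DHCR7 and SCAP), 10.0% against 7.92%. A match describes the letters only and does not show that a factor binds.

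The 200 bases before the TSS are printed in the direction of transcription, with capitals on every ACGTG, TCACNCCAC and CCAAT, or their reverse complements CACGT and ATTGG. INSIG2 lies on chromosome 2 (chr2:118845925-118846124, plus strand) and had ACGTG at 173 bases before the TSS and again at 26 after it. STARD4 (chr5:110848296-110848495, minus strand) had ACGTG at 52 and INSIG1 (chr7:155089281-155089480, plus strand) at 89 bases before the TSS. HMGCS1 had it too, at 171 bases. Of the 12 members with ACGTG, 2 (INSIG2 and STARD4) were called higher in WT hypoxia in a fit with or without the replicate number as a block and 10 were not, INSIG1 and HMGCS1 among them. The sterol response element stood at 159 bases before the TSS in HMGCS1 (chr5:43313615-43313814, minus strand) and at 106 in SREBF2 (chr22:42228882-42229081, plus strand).
INSIG2: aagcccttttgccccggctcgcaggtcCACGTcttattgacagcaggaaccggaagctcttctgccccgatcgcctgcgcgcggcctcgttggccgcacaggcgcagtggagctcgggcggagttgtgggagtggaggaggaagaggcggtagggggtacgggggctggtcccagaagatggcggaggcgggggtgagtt
STARD4: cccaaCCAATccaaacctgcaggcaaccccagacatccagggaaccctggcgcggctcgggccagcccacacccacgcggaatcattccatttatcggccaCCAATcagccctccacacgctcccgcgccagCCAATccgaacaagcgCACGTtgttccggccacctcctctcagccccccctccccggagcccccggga
INSIG1: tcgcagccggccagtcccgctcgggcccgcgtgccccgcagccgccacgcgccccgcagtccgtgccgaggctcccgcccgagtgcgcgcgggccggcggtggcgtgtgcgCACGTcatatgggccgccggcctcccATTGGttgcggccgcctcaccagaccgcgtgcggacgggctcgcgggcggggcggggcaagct
HMGCS1: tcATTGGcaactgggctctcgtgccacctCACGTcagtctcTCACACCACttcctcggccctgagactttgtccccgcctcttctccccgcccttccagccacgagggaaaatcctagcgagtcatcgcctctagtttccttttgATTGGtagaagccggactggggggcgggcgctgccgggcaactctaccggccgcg
SREBF2: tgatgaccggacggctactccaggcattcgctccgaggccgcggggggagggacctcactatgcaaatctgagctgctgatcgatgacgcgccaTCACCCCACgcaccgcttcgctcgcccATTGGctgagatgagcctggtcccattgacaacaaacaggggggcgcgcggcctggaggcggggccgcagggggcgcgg

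Transcription of these genes in WT normoxia ranged widely. On the per-length scale (RPKM, reads per kb of gene body per 1000000 reads), the 30 genes ran from 0.493 to 22.5 with a median of 2.61, against a median of 1.29 over all 16686 genes tested. The highest level was that of SCD, the desaturase that makes oleate, at 22.5 ± 2.43 (SD, n = 2). TM7SF2, a sterol reductase, and FASN, the fatty acid synthase, followed at 20.0 ± 1.41 and 16.8 ± 1.19. The ranges of TM7SF2 and SCD overlapped, so their order is not resolved by 2 libraries.

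Among the mevalonate and farnesyl steps, IDI1, the isopentenyl diphosphate isomerase, stood highest at 7.36 ± 0.521 RPKM, with the farnesyl diphosphate synthase FDPS at 6.03 ± 1.36. The decarboxylase MVD was at 4.23, the kinases PMVK and MVK at 3.40 and 2.35, the HMG-CoA synthase HMGCS1 at 2.20 and the thiolase ACAT2 at 1.68 RPKM. These enzymes act in sequence, and their transcription levels differed along the path. Among the later steps below TM7SF2, DHCR7, the last reductase of the pathway, was at 3.38 RPKM, MSMO1 at 3.09, the squalene synthase FDFT1 at 2.81 and the demethylase CYP51A1 at 2.41. The isomerase EBP was at 2.37, the epoxidase SQLE at 2.08, the desaturase SC5D at 1.94 and the lanosterol synthase LSS at 1.75 RPKM. The lowest were HSD17B7 at 1.03 and NSDHL at 0.855 RPKM, which take part in removing the methyl groups at carbon 4.

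Of the sensors, SREBF1 was transcribed at 10.4 ± 0.681 RPKM and SREBF2 at 3.02 ± 0.137. INSIG1 was at 4.85 ± 1.00 RPKM and INSIG2, its close relative, at 0.901 ± 0.0667. SCAP and STARD4, a carrier of cholesterol between membranes, were both at 1.62 RPKM. INSIG2 was thus among the 3 lowest members in normoxia, ahead of NSDHL and FADS2 only. In the fatty acid group, FADS1 was at 9.58, ACACA, an acetyl-CoA carboxylase, at 2.90, ELOVL6, which elongates palmitate, at 1.71 and FADS2 at 0.493 RPKM.

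**Figure D1:**
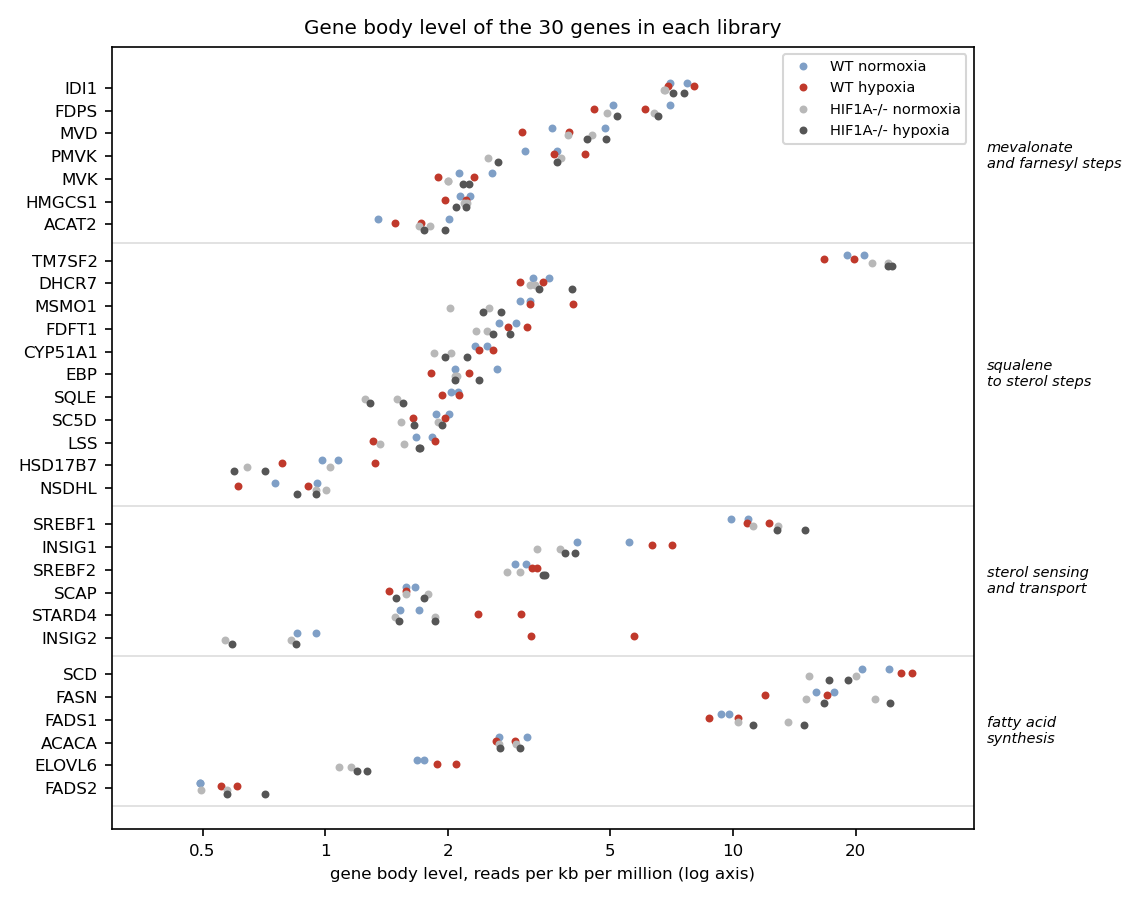
Gene body level of the 30 genes in RPKM (log axis), 1 point per library, colored by genotype and oxygen and grouped by step of the pathway. SCD, TM7SF2 and FASN are the highest of the set in WT normoxia. INSIG2, STARD4, INSIG1, SCD, ELOVL6 and, barely, MSMO1 have both WT hypoxia points to the right of their other points. The share over all genes was not computed for this.

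The first comparison asks how transcription in WT cells responds to 90 min of hypoxia. Of the 30 genes, 1 rose in the gene body at an FDR of 10% and 0 fell. The gene that rose was INSIG2, an endoplasmic reticulum protein that retains SCAP and the SREBPs. Over all genes, 0.431% were called higher and 0% lower. The median log2 fold change of the 30 genes was -0.05, against -0.02 for all genes tested.

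INSIG2 gene body counts were 17.5 and 19.4 CPM in WT normoxia, 65.4 and 117 CPM in WT hypoxia, and HIF1A-/- cells had 11.6 and 16.9 CPM before and 12.1 and 17.4 CPM after hypoxia. Both WT hypoxia libraries were above all the others, which lay close together, and they also differed from each other. The log2 fold change in WT cells was 2.27 ± 0.297 (SE), 4.83-fold, with an adjusted p of 0.0314 (edgeR, quasi-likelihood, Benjamini-Hochberg over all genes); taking the replicate number as a block gave 4.35e-04. The rise was 1.90 for the libraries numbered 1 and 2.59 for those numbered 2. By fold change INSIG2 ranked 32 and by p 33 of 16686 genes. Its adjusted p ran from 3.11e-30 to 0.498 over 15 alternatives, of which 12 called it. It was not called without the first or second WT normoxia library or without the second WT hypoxia library (log2 fold change 1.82). Each of these fits left 1 library in a group, and fewer of all genes were called in them than with all 8 libraries.

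STARD4 gene body counts were 19.5 and 17.5 CPM in WT normoxia and 27.1 and 34.6 CPM in WT hypoxia, against 17.0 and 21.3 CPM and then 17.4 and 21.3 CPM in HIF1A-/- cells. Again the WT hypoxia libraries were the highest of the 8 and did not overlap with the rest. INSIG1, SCD, ELOVL6 and, barely, MSMO1 showed the same order, and its share over all genes was not computed. The log2 fold change of STARD4 in WT cells was 0.70 ± 0.188 with an adjusted p of 0.551 without and 0.0609 with the replicate block. The block fit thus called 2 of the 30 genes (3.73% of all genes were called higher in it and 1.77% lower). Another transcript, STARD4-AS1, starts 372 bp away. It gave a log2 fold change of 0.54 ± 0.210 (adjusted p = 0.897, 0.112 with the block); the libraries are strand-specific per the labels, but whether counting used strand is not given in the sources used here.

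INSIG1, the other sterol-dependent anchor, had 63.8 and 47.5 CPM in WT normoxia and 72.8 and 81.2 CPM in WT hypoxia, and 37.9 and 43.2 CPM followed by 44.3 and 47.1 CPM in HIF1A-/- cells. The WT libraries did not overlap between oxygen levels, but the change of 0.43 ± 0.169 on the log2 scale was not called (adjusted p = 0.897, 0.145 with the block). For the factor genes themselves the WT values were 268 and 244 against 302 and 267 CPM for SREBF1, and 228 and 214 against 242 and 236 CPM for SREBF2. SREBF1 overlapped between oxygen levels and SREBF2 did not, with log2 fold changes of 0.13 ± 0.131 and 0.08 ± 0.113, neither of which passed the test. SCAP had 102 and 96.6 CPM in normoxia and 96.6 and 87.7 CPM in hypoxia.

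**Figure D2:**
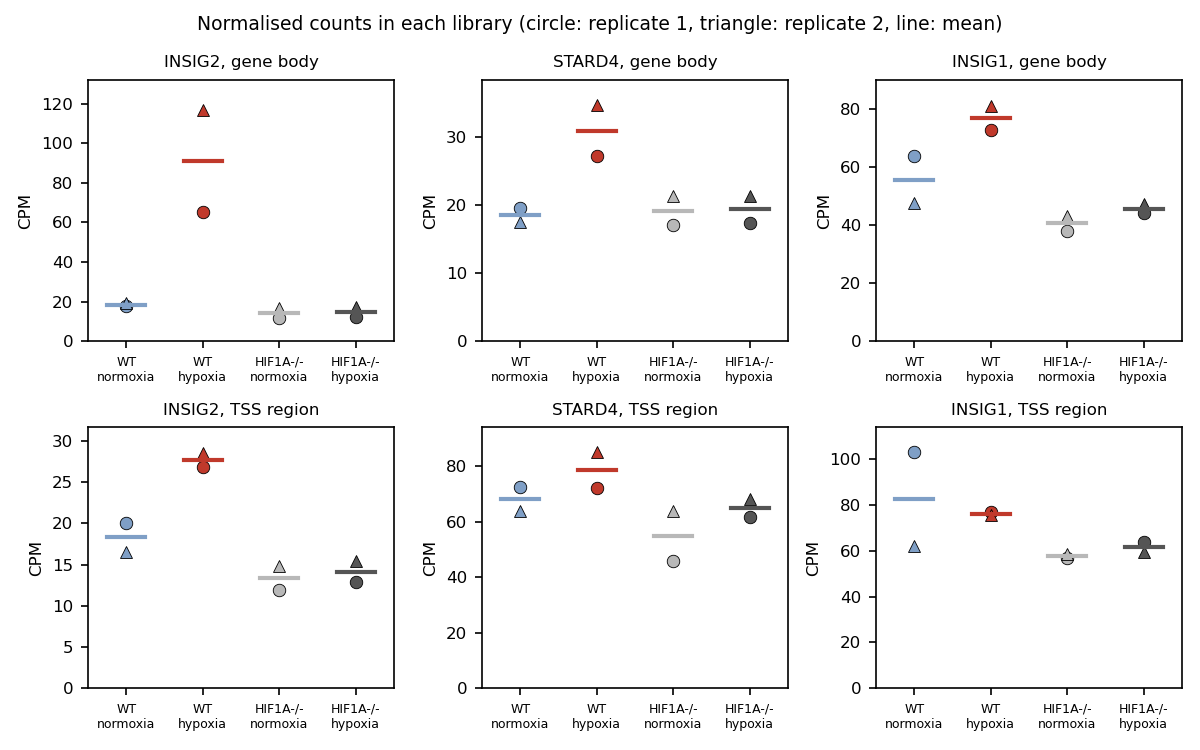
CPM of INSIG2, STARD4 and INSIG1 in the gene body (top) and TSS region (bottom) in each of the 8 libraries, with the group mean as a line. INSIG2 gene bodies reach 65.4 and 117 CPM in WT hypoxia and at most 19.4 CPM elsewhere, whereas its TSS region stays between 11.9 and 28.5 CPM.

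The 24 enzyme genes showed no such rise. In WT cells their gene body log2 fold changes ran from -0.30 to 0.22 with a median of -0.10. Of these, 0 of 24 were called, where 0.431% of all genes were called higher and 0% lower. An unadjusted p under 0.05 was reached by 0 of 24, a count given without the share of all genes. DESeq2 called INSIG2 alone among the 30 genes, beside 1.04% of all genes higher and 0.00599% lower. By group, the medians were -0.11 for the mevalonate and farnesyl steps, -0.11 from squalene on and 0.07 for fatty acid synthesis, against 0.28 for sterol sensing and transport. The lowest was MVD, with 49.6 and 36.8 CPM in normoxia and 40.4 and 31.1 CPM in hypoxia (log2 fold change -0.30 ± 0.224, adjusted p = 0.897). MVD libraries overlapped. SQLE, the squalene epoxidase that uses molecular oxygen, had 46.4 and 48.4 CPM in normoxia and 44.1 and 48.5 CPM in hypoxia, and CYP51A1, an oxygen-using demethylase, had 53.8 and 50.2 CPM and then 51.4 and 55.7 CPM. Both overlapped between oxygen levels. Over the 30 genes the standard error was 0.112 to 0.323, and a change of several standard errors could go uncalled, as for STARD4 (0.70 ± 0.188). A gene without a call was therefore not shown to be unchanged.

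Counted by libraries alone, 8 of 30 genes had both WT hypoxia libraries above both WT normoxia libraries (MSMO1, INSIG1, INSIG2, SREBF2, STARD4, SCD, FADS2 and ELOVL6), beside 19.8% of all genes, and 0 had both below, beside 17.3%.

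In HIF1A-/- cells the same exposure gave no call in the gene body for the 30 genes (0 with the block, 0 by DESeq2, 0 at an unadjusted p under 0.05), and 0% of all genes were called higher or lower (0.0300% and 0.00599% with the block). The median was 0.07, with 23 of 30 above 0, against a median of 0.001 for all genes. The count above 0 stands without the share of all genes and does not show an excess. The log2 fold changes ran from -0.38 ± 0.329 for HSD17B7, which had 4.14 and 6.62 CPM in normoxia and 3.84 and 4.59 CPM in hypoxia, to 0.22 ± 0.158 for FADS2, with 19.0 and 22.0 CPM and then 22.0 and 27.2 CPM. Both had an adjusted p of 1.00 and neither was separated between oxygen levels. INSIG2 changed by 0.01 and STARD4 by -0.02 on the log2 scale. Both libraries were higher in hypoxia for 9 genes (14.4% of all genes) and lower for 1, NSDHL (9.15%).

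**Figure D3:**
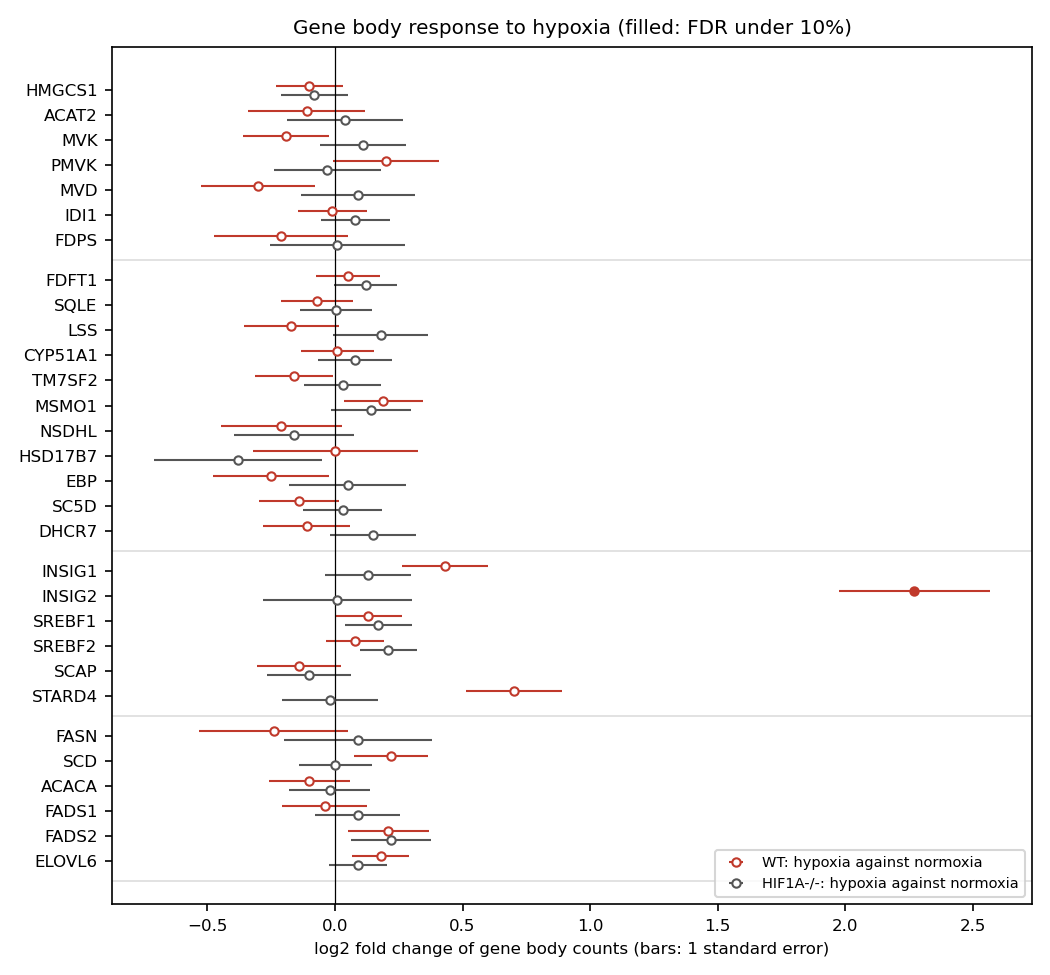
Log2 fold change of gene body counts in hypoxia against normoxia for each of the 30 genes, in WT (red) and HIF1A-/- cells (gray), with 1 standard error; filled points pass an FDR of 10%. INSIG2 at 2.27 in WT cells is the only filled point, and the 24 enzymes lie between -0.38 and 0.22 in both genotypes.

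The response was then compared between genotypes as an interaction. For INSIG2 it was larger in WT cells by 2.26 ± 0.413 on the log2 scale, which was not called without the block (adjusted p = 0.373) and was called with it (0.0101) and by DESeq2 (1.98e-04, beside 0.408% of all genes). Without the block, 0 of 30 genes were called (2 with an unadjusted p under 0.05), beside 0.0539% of all genes called larger in WT cells and 0% smaller. With it, 1 of 30 was called, beside 0.384% larger. Without the block, the INSIG2 interaction was also not called by edgeR without TMM or with other filters. Leaving out a library moved the INSIG2 interaction between 1.81 and 2.61. For STARD4 the interaction was 0.73 ± 0.265 (adjusted p = 1.000, 0.637 with the block). The most negative value was that of MVD, -0.40 ± 0.315 (adjusted p = 1.000).

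The next comparison, of HIF1A-/- with WT cells in normoxia, asks which genes differed between the lines before hypoxia. Of the 30 genes 1 was lower in HIF1A-/- cells and 0 were higher, where 1.05% and 0.725% of all genes were called. That gene was ELOVL6, with 260.3 and 249 CPM in WT and 161 and 172 CPM in HIF1A-/- cells. The log2 fold change was -0.61 ± 0.113 (adjusted p = 0.0504, 0.00481 with the block). The groups were far apart, but the call was mostly lost when a library was left out. It was made under 7 of 15 alternatives and was lost in 7 of the 8 fits that left out a library, where the fold change stayed between -0.66 and -0.56. The call was kept only without the first WT hypoxia library. All 8 of these fits left 1 library in a group and called fewer of all genes as well.

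With the replicate block, 3 of 30 genes were lower in HIF1A-/- cells, beside 6.39% of all genes, and 0 were higher, beside 3.93%. DESeq2 called ELOVL6 and SQLE lower, beside 1.98% of all genes, and 0 higher, beside 1.79%. The other two of the block fit were SQLE and MSMO1, the latter a methylsterol monooxygenase. SQLE had 46.4 and 48.4 CPM in WT and 28.5 and 34.3 CPM in HIF1A-/- cells (log2 fold change -0.60 ± 0.141, adjusted p = 0.132, 0.00936 with the block). MSMO1 had 43.6 and 46.0 CPM in WT and 29.4 and 36.5 CPM in HIF1A-/- cells (-0.45 ± 0.157, 0.383, 0.0444 with the block). For these genes no library of one line reached the other line. That held for 11 of the 30 genes with HIF1A-/- cells lower and 4 with them higher, and the share over all genes was not computed. The largest positive value was that of FADS1, a desaturase, with 161 and 154 CPM in WT and 169 and 224 CPM in HIF1A-/- cells (0.31 ± 0.166, adjusted p = 0.702). The median log2 fold change of the 30 genes was -0.10, against -0.01 for all genes.

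The lines were also compared under hypoxia. In HIF1A-/- cells 3 of 30 genes were lower than in WT cells and 0 were higher, beside 2.79% and 1.47% of all genes. They were INSIG2, ELOVL6 and INSIG1. With the block, 9 were lower and 4 higher, beside 15.1% and 13.1%, and DESeq2 called 6 lower, beside 4.73%, and 0 higher, beside 3.12%. This comparison uses the same WT hypoxia libraries as the WT hypoxia response, so for INSIG2 and STARD4 the 2 are not independent. More genes were called between the lines in hypoxia than in normoxia among all genes tested as well, and the difference between the counts of members was not tested.

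From the counts given above, INSIG2 differed by -2.64 ± 0.301 on the log2 scale (adjusted p = 0.00515, 4.83e-05 with the block) and was called in all 15 alternatives. ELOVL6 had 279 and 311 CPM in WT hypoxia and 178 and 188 CPM in HIF1A-/- hypoxia, a difference of -0.70 ± 0.113 (adjusted p = 0.0219, 0.00156 with the block). These libraries are separate from those in normoxia, where the difference was -0.61. Same-numbered libraries deviated together across the groups, so the 2 differences are not fully independent. The call was lost without the second WT hypoxia library or without the first or second HIF1A-/- hypoxia library. INSIG1 differed by -0.76 ± 0.170 (adjusted p = 0.0677, 0.00948 with the block), and was not called without either WT hypoxia library or either HIF1A-/- hypoxia library. For both genes, these fits left 1 library in a group and called fewer of all genes. The interaction of INSIG1 between genotype and oxygen was 0.30 ± 0.240, which did not pass the test, so a different response of INSIG1 in the 2 lines was not shown.

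SCD, the most transcribed gene of the set, had 464 and 434 CPM in WT hypoxia and 289 and 322 CPM in HIF1A-/- hypoxia. The libraries were well separated, and the difference of -0.57 ± 0.145 lay just outside the threshold (adjusted p = 0.102, 0.0172 with the block). In normoxia SCD had 407 and 349 CPM in WT and 259 and 337 CPM in HIF1A-/- cells, a difference of -0.35 ± 0.144. SQLE had 44.1 and 48.5 CPM in WT hypoxia and 29.3 and 35.4 CPM in HIF1A-/- hypoxia (-0.53 ± 0.141, adjusted p = 0.114, 0.00850 with the block). SQLE was thus lower by a similar amount at both oxygen levels. MSMO1 had 46.0 and 58.7 CPM against 35.3 and 39.2 CPM (-0.50 ± 0.156, 0.175, 0.0164 with the block), and STARD4 differed by -0.69 ± 0.187 (0.125, 0.0164 with the block). HSD17B7, a ketoreductase of low counts with 5.05 and 8.51 CPM against 3.84 and 4.59 CPM, differed by -0.70 ± 0.328 (0.356, 0.0900 with the block).

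Genes on the other side were FADS1, TM7SF2, MVD and FASN. FADS1 had 169 and 144 CPM in WT hypoxia and 184 and 245 CPM in HIF1A-/- hypoxia (0.44 ± 0.166, adjusted p = 0.257, 0.0693 with the block). TM7SF2 had 67.0 and 56.6 CPM against 82.9 and 81.2 CPM (0.40 ± 0.152, 0.266, 0.0388 with the block). Both genes had all HIF1A-/- hypoxia libraries above the WT ones, which held for 6 of the 30 genes, while 9 had them all below. The share over all genes was not computed. FASN gave the highest value, 0.50 ± 0.292 (adjusted p = 0.461, 0.0271 with the block), with 322 and 226 CPM against 459.9 and 317 CPM. Its libraries overlapped, and replicate 1 was above replicate 2 in all 4 groups. MVD (0.39) was called higher and PMVK (-0.35) lower only in fits with the block. The median of the 30 genes was 0.05, against 0.005 for all genes. HIF1A-/- cells are 1 derived line, so loss of HIF1A and other differences between that line and its parent cannot be told apart in these comparisons, and a lower CPM in bulk cells does not tell fewer transcribing cells from less transcription in each.

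**Figure D4:**
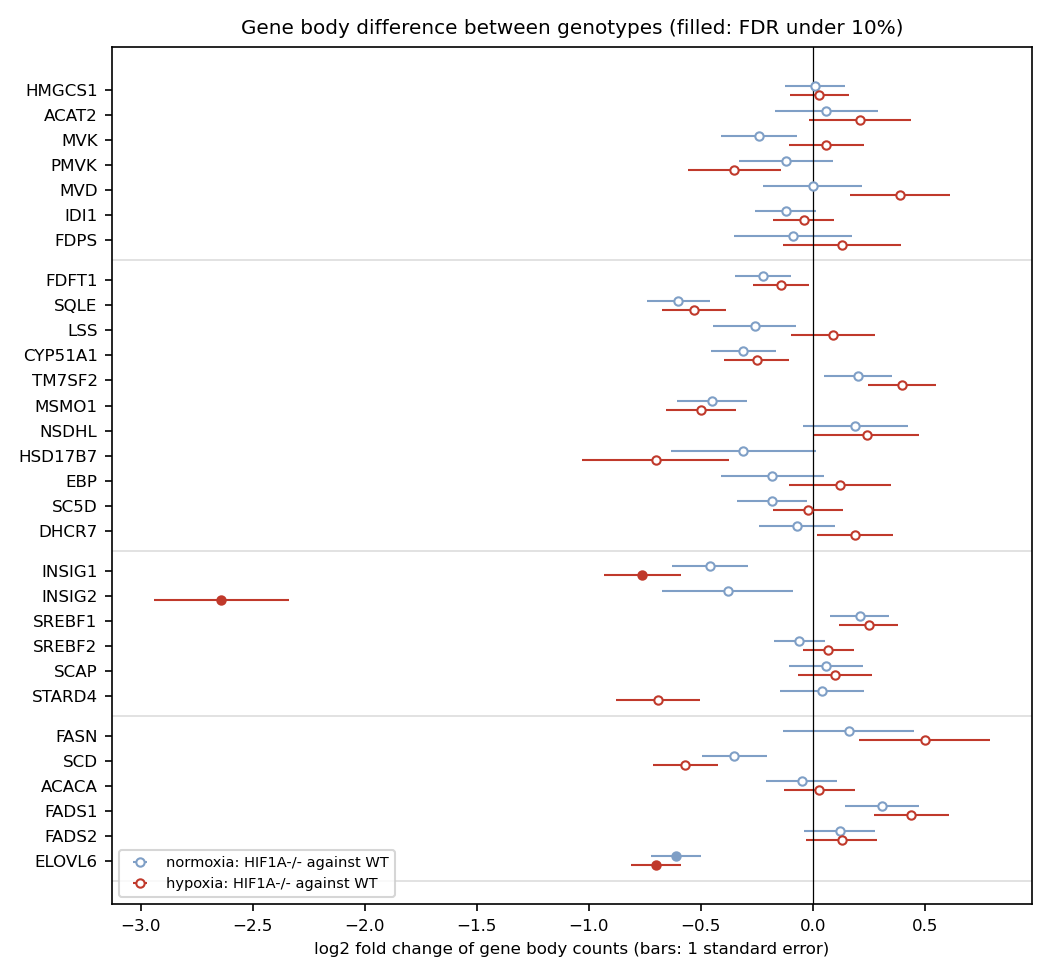
Log2 fold change of gene body counts in HIF1A-/- against WT cells for each of the 30 genes, in normoxia (blue) and hypoxia (red), with 1 standard error; filled points pass an FDR of 10%. ELOVL6 is filled at both oxygen levels (-0.61 and -0.70), and INSIG2 (-2.64) and INSIG1 (-0.76) in hypoxia.

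**Figure D5:**
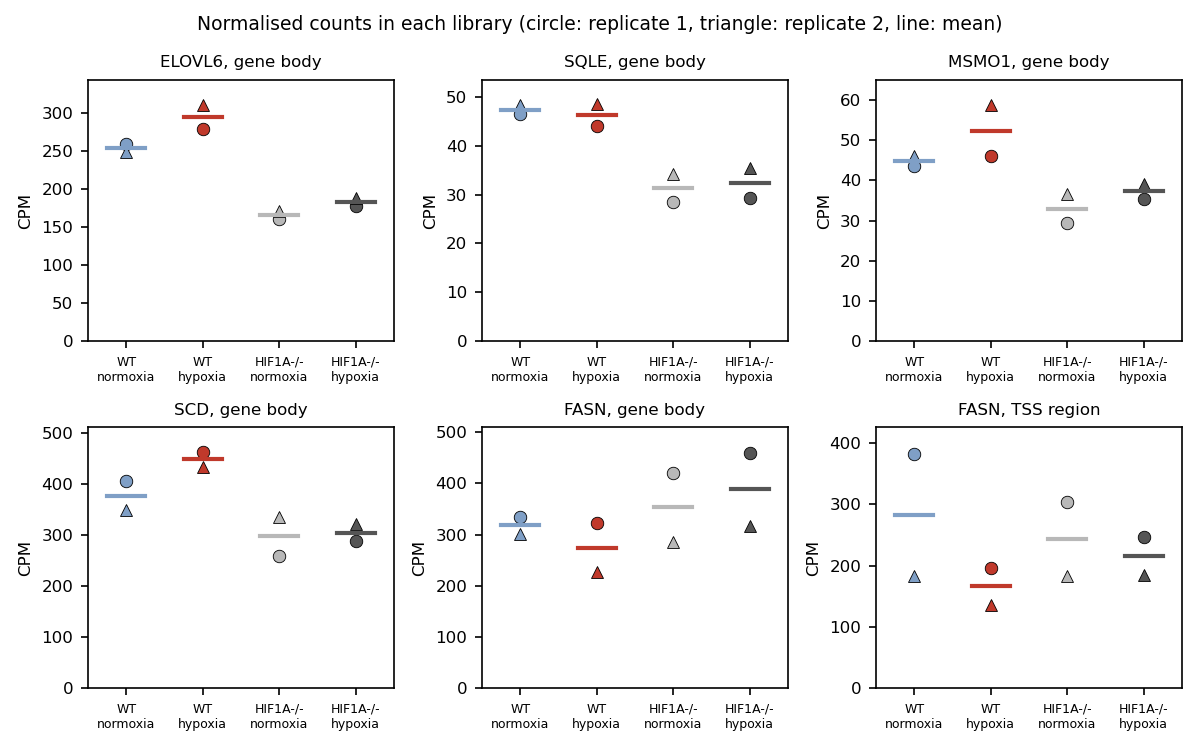
CPM of 5 enzyme genes in the gene body, and of FASN also in the TSS region, in each of the 8 libraries, with the group mean as a line. For ELOVL6, SQLE, MSMO1 and SCD all 4 HIF1A-/- points lie below all 4 WT points. The same holds for CYP51A1, INSIG1 and, barely, INSIG2 in the gene body (not drawn here). The share over all genes was not computed. For FASN replicate 1 (circles) lies above replicate 2 (triangles) in every group.

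At the TSS, 0 of the 30 genes were called in any of the 5 comparisons without the block, where 0.0460% of all genes were called higher in WT hypoxia and 0.00657% larger in the interaction, and between genotypes 0.224% higher and 0.434% lower in normoxia and 0.440% higher and 0.664% lower in hypoxia. With the block 0 were called in HIF1A-/- hypoxia or the interaction, beside 0.00657% and 0.0460% of all genes. DESeq2 also called 0, and 3, 0, 0, 3 and 4 genes had an unadjusted p under 0.05 for hypoxia in WT cells, hypoxia in HIF1A-/- cells, the interaction, and genotype in normoxia and in hypoxia. The share of all genes under 0.05 is not given beside these counts, so they do not show an excess. INSIG2 TSS counts were 20.1 and 16.5 CPM in WT normoxia, 26.9 and 28.5 CPM in WT hypoxia, and in HIF1A-/- cells 11.9 and 14.9 CPM before and 12.9 and 15.4 CPM after hypoxia. They were highest in WT hypoxia, as in the gene body, with a log2 fold change of 0.63 ± 0.282 (adjusted p = 0.922, 0.337 with the block).

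FASN had 382 and 184 CPM at the TSS in WT normoxia and 197 and 136 CPM in WT hypoxia. Its groups overlapped, and the change of -0.74 ± 0.315 (adjusted p = 0.922, 0.0180 with the block, beside 0.217% of all genes called lower and 0.789% higher) rested on the first WT normoxia library, without which it was -0.12. The lowest fold change was that of FADS2, -0.84 ± 0.571, at 3.16 and 2.62 CPM against 1.26 and 1.84 CPM. Between genotypes, the block fit called SQLE lower in normoxia (-0.55 ± 0.176, adjusted p = 0.383, 0.0469 with the block) from 109.6 and 130.1 CPM in WT and 73.6 and 87.2 CPM in HIF1A-/- cells, beside 2.04% of all genes called lower and 2.24% higher. In hypoxia it called SQLE (-0.48), CYP51A1 (-0.42) and INSIG2 (-0.98) lower, beside 6.97% of all genes, and ACAT2 (0.40) and FADS2 (1.61) higher, beside 7.47%. SQLE was the member whose TSS and gene body counts were both lower with the block at each oxygen level.

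The pausing index, the read density at the TSS over that in the gene body with each table scaled to its own total, compares both regions. For INSIG2 it was 42.6 and 31.6 in WT normoxia and 15.3 and 9.04 in WT hypoxia, while HIF1A-/- cells had 38.0 and 32.8 before and 39.8 and 32.9 after hypoxia. Both WT hypoxia libraries were below the other 6. The index fell by 1.64 ± 0.304 on the log2 scale in WT hypoxia (adjusted p = 0.0521, 0.00240 with the block), the one call among the 30 genes, beside 0.186% of all genes called lower and 0.00690% higher (0.497% and 0.0483% with the block). Leaving out a library gave -1.99 to -1.26, and the call was lost without either WT normoxia library or the second WT hypoxia library. In hypoxia the index was higher in HIF1A-/- than in WT cells by 1.63 ± 0.316 (adjusted p = 0.0404, 0.00193 with the block), beside 0.435% of all genes called higher. That call was lost without the second WT hypoxia library or either HIF1A-/- hypoxia library. The fits that lost these calls left 1 library in a group, and fewer of all genes were called in them as well. The gain of INSIG2 in WT hypoxia was thus larger in the gene body than at the TSS. With the block, FADS2 was called higher as well, 2.83-fold (adjusted p = 0.273, 0.0947 with the block), beside 3.81% of all genes. The INSIG2 interaction, -1.70 ± 0.455, was not called with or without the block (adjusted p = 0.172 and 1.00). No other change of the index in the 30 genes was called by edgeR, and 4 genes in WT hypoxia, 0 in HIF1A-/- hypoxia, 2 in the interaction, 1 between genotypes in normoxia and 6 in hypoxia had an unadjusted p under 0.05. Here too the share of all genes under 0.05 is not given, so an excess is not shown.

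STARD4 had pausing indices of 77.0 and 75.7 in WT normoxia and 55.4 and 51.2 in WT hypoxia, and INSIG1 33.5 and 27.2 and then 21.9 and 19.3. Neither gene overlapped between oxygen levels, and neither change passed the test (-0.50 ± 0.216 and -0.54 ± 0.205, adjusted p = 0.858 for both). For the 30 genes the median change was -0.13 in WT cells and -0.03 in HIF1A-/- cells, against -0.03 and -0.01 over all genes. By raw density, without scaling, 29 of 30 genes had more reads per base at the TSS than in the gene body in every library, the exception being PMVK at 0.296 to 0.682. The median ratio of the 30 genes was 4.62 to 9.50 over the libraries, and that of all genes 5.83 to 11.5.

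Other genes of these pathways were read from a list of 38, of which 36 were tested in the gene body. In the fit without the block 0 of 36 were called in each of the 5 comparisons, and 0 by DESeq2, with 0, 1, 0, 1 and 3 at an unadjusted p under 0.05 (hypoxia in WT and in HIF1A-/- cells, the interaction, and genotype in normoxia and in hypoxia). These counts stand without the share of all genes and do not show an excess. The median of the 36 genes in WT hypoxia was -0.06. With the block, ELOVL2, an elongase of polyunsaturated fatty acids, was called higher in WT hypoxia, beside 3.73% of all genes. It had 2.75 and 4.86 CPM in normoxia and 4.48 and 10.9 CPM in hypoxia, which overlapped (log2 fold change 0.99 ± 0.515, adjusted p = 0.897, 0.0762 with the block). LPIN1, a phosphatidate phosphatase, was lower in HIF1A-/- cells with the block in normoxia, with 111 and 86.7 CPM in WT and 54.4 and 72.4 CPM in HIF1A-/- cells (-0.65 ± 0.202, adjusted p = 0.293, 0.0769 with the block), and in hypoxia (-0.52 ± 0.201, 0.272, 0.0822). In hypoxia the block fit called 7 of the 36 between genotypes, 5 higher and 2 lower in HIF1A-/- cells, beside 13.1% and 15.1% of all genes. The lower ones were LPIN1 and ELOVL2 (-1.33 ± 0.520, adjusted p = 0.272, 0.00730 with the block). ELOVL1, another elongase, was higher, at 34.0 and 29.7 CPM in WT and 62.1 and 41.6 CPM in HIF1A-/- cells (0.70 ± 0.277, 0.276, 0.0495). Its libraries did not overlap. FADS3 and NPC1, the latter an exporter of cholesterol from lysosomes, were higher by 0.31 ± 0.142 and 0.25 ± 0.128 (0.342 and 0.401, 0.0846 and 0.0917 with the block).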

How the data were processed

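PRO-seq reads were turned into counts by the authors: per the methods and the submitters' processing notes, 2 sequencing runs per sample were merged, trimmed, aligned to GRCh37 with HISAT2 2.1.0, filtered on mapping quality with SAMtools 1.5 and counted with featureCounts (Subread 1.6.2). The deposited values are raw counts per gene for a TSS region of 551 bp and for a gene body from position 1001 on, each gene having a single start site. Genes with near-identical copies can therefore lose reads. Of the 30 genes, 5 have named pseudogenes (IDI1, FDPS, CYP51A1, HSD17B7 and SCD), and 9 have another counted TSS within 1000 bp.

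Samples were grouped by their titles. Genes above 0.5 CPM in at least 2 libraries were kept (16686 gene bodies, 15212 TSS regions and 14494 in both), scaled by TMM factors, and entered the quasi-likelihood test of edgeR 4.0.16 under R 4.3.3, in one fit of 4 group means, with Benjamini-Hochberg adjustment over all genes and an FDR of 10%. Printed CPM use each table's total, without TMM. The pausing index was tested on both tables together with a term per library, and the fits were tested on simulated data. Alternatives were the replicate block, DESeq2 1.42.0, no TMM, other filters, only the groups compared and each library left out. Same-numbered libraries deviated together in all 6 pairs of groups (correlations across genes of 0.484 to 0.790 in gene bodies and 0.216 to 0.519 at the TSS), so the shared numbers in the labels were taken to pair them. P-values rest on 2 libraries per group. All members are named; fold changes are given for those called in either fit (the 10 with the smallest p) and for the highest and lowest, and other pathway genes only where called (the 5 with the smallest p). Members and lists were chosen with earlier results of these data known. Promoter sequence was read from the GRCh37 genome at the counted TSS, and 1 promoter sequence is not reported here. Reads may be PCR copies of a molecule, so counting error alone understates the spread.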

Additional observations from a re-analysis of the deposited data

Results flagged for a closer look

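The response of INSIG2 gene bodies to hypoxia differed between the genotypes, with the WT change exceeding the HIF1A-/- change by 2.26 on the log2 scale. Both WT hypoxia libraries (65.4 and 117 CPM) exceeded all 6 others. The difference passed the threshold in the edgeR fit with the replicate block (adjusted p = 0.0101) and in DESeq2. It missed the threshold in the edgeR fit without the block (adjusted p = 0.373). Without the block, edgeR also did not call it without TMM or with other filters. With 2 libraries per group, no group was large enough to be tested for single outlying libraries.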

How the results depend on the processing

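Calls rested on 2 libraries per group, and no called change of a member took the opposite sign under an alternative. The replicate block takes the shared replicate numbers as a pairing. In gene bodies it raised the number of called members from 1 to 2 in WT hypoxia and 0 to 1 for the interaction. Between genotypes the number rose from 1 to 3 in normoxia and 3 to 13 in hypoxia. The share of all genes called in either direction rose as well, from 0.431 to 5.51%, 0.0539 to 0.384%, 1.78 to 10.3% and 4.26 to 28.2%. At the TSS the block gave 1, 1 and 5 members in WT hypoxia and between genotypes in normoxia and hypoxia, in place of 0. Beside these, 1.01%, 4.29% and 14.4% of all genes were called. For the pausing index between genotypes in hypoxia it gave 2 members in place of 1, beside 6.62% of all genes. The block changed no other count of called members, and lowered the common dispersion from 0.0376 to 0.0110 in gene bodies. DESeq2 gave 1, 2 and 6 genes in gene bodies for the interaction and between genotypes in normoxia and hypoxia, where it called 0.408%, 3.78% and 7.86% of all genes in either direction. DESeq2 with the block gave 2 in WT hypoxia, 1 for the interaction, 4 and 12 between genotypes (6.16%, 0.731%, 9.40% and 23.2% of all genes), and at the TSS 1 in WT hypoxia and 1 between genotypes in hypoxia (0.421% and 7.12%). Fitting only the groups compared gave 0 in gene bodies between genotypes in normoxia (1.52% of all genes) and 1 at the TSS in hypoxia (6.17%). No low-count filter gave 1 at the TSS in WT hypoxia and 1 between genotypes in hypoxia (0.356% and 6.01%). Without TMM the median change of the pausing index in WT hypoxia was -0.16.

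Leaving out 1 library at a time left a group with 1 library, and the number of all genes called moved in these fits too. The numbers of called members in them are therefore not listed here. Median log2 fold changes of the 30 genes in gene bodies then ran from -0.09 to 0.07 in WT hypoxia, -0.15 to 0.02 for the interaction and -0.05 to 0.10 between genotypes in hypoxia. At the TSS they ran from -0.21 to 0.02 in WT hypoxia, -0.03 to 0.05 in HIF1A-/- hypoxia and -0.21 to -0.03 for the interaction. For the pausing index they ran from -0.16 to -0.10 in WT hypoxia, -0.12 to -0.01 in HIF1A-/- hypoxia, -0.23 to -0.04 for the interaction, -0.05 to 0.05 between genotypes in normoxia and 0.01 to 0.16 in hypoxia. Where such a range spans 0, the median has no settled sign. The cause of these shifts was not tested. Low counts limit HSD17B7 in gene bodies and FADS2 and PMVK at the TSS.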
